A study of Mus musculus with 12 samples.

Results

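Metallothioneins 1 and 2, encoded by Mt1 and Mt2, were followed in mouse kidney cortex by every probe that the platform annotation gives to either gene. The 2 genes are among 6786 that have a probe with 1 gene symbol. There were 3 such probes of 15600 in all, 1 for Mt1 and 2 for Mt2, each printed as 2 spots, so that 6 of 31200 spots belonged to them. The array held 0 probes annotated to the other family members Mt3 and Mt4. All 3 probes passed the filter on dim probes, which 7683 probes passed.

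The study compared cortex RNA from mice labelled control with cortex RNA from mice labelled menopausal and treated with VCD, an abbreviation commonly used for vinylcyclohexene diepoxide, a compound that depletes small ovarian follicles in rodents. There were 3 control and 3 menopausal cortex samples. Amplified RNA of 2 samples was hybridised to each of 12 arrays, the first labelled with Alexa Fluor 546 and the second with Alexa Fluor 647, and each sample was measured on 4 arrays, 2 with each dye. Of the arrays, 6 set a menopausal sample against a control sample and 6 set samples of 1 group against each other. The labels give neither strain, sex, age, dose nor time after treatment. They do not say whether a sample came from 1 mouse or several, so that p-values of the group comparison measure the spread between these samples. Control and menopausal samples of the same number never met on an array.

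Metallothioneins are small, cysteine-rich cytosolic proteins that bind zinc, copper and cadmium. Their genes are switched on by metal-loaded MTF1, a zinc-finger factor that binds metal response elements in the promoter, and also respond to glucocorticoids, oxidants and acute phase signals. In the kidney, proximal tubule cells take up and retain metal bound to metallothionein.

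Both genes lie on mouse chromosome 8 in the order Mt4, Mt3, Mt2, Mt1 of the RefSeq annotation (GRCm38.p6). The windows from 250 bases before to 50 bases after each start site, taken from RefSeq, are shown because promoter elements of this kind are the known binding sites of MTF1. The Mt2 window is chr8:94172368-94172667 and the Mt1 window is chr8:94178839-94179138, both on the plus strand of GRCm38.p6. Capitals mark matches on either strand to the core TGCACNC or TGCGCNC.
Mt2: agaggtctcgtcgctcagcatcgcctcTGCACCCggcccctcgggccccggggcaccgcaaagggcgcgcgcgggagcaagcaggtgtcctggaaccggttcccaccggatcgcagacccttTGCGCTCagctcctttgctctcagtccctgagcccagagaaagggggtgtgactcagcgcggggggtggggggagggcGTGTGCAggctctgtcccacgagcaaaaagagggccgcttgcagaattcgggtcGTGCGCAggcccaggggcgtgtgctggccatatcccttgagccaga
Mt1: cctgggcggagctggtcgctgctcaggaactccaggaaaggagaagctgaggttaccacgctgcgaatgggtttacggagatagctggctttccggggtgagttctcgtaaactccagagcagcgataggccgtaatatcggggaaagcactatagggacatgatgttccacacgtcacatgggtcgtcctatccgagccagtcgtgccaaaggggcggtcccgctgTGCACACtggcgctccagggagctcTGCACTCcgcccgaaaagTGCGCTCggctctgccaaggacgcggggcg

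The Mt2 window held 4 matches to the core and the Mt1 window 3. Those of Mt2 began at positions -223, -128, -50 and 5 from the start site, and those of Mt1 at -23, 3 and 21. In 25.7% of 32851 promoter windows of the same length there was at least 1 match, in 1.97% at least 3 and in 0.517% at least 4. The antioxidant response element core TGACNNNGC was found 1 time in the Mt2 window, at -79 and apart from the metal response element cores, and 0 times in the Mt1 window; 12.4% of the windows held it. The full palindromes of the glucocorticoid and of the oestrogen response element, searched on both strands, were found 0 times in either window, and in 0.00913% and 0.07% of all windows. Positions and counts depend on the RefSeq start sites used, and bases outside the windows were not searched. A count of 0 therefore holds for the window alone, and does not show that the Mt1 promoter lacks an element found for Mt2. These matches describe letters in the windows, and binding was not measured.

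Signal was measured on every array for both genes. The Mt1 probe and Mt2 probe 1 exceeded local background by more than 2 of its SDs in 12 of 12 channel measurements of each group. Mt2 probe 2 did so in 10 of 12 control and 12 of 12 menopausal measurements. Above local background, the Mt1 probe read 595.5 to 6819 scanner units with Alexa Fluor 546 (median 1942) and 156 to 3493 with Alexa Fluor 647 (median 1020). None of the 144 spot measurements carried an abnormal mark or reached the scanner ceiling of 65535, and the highest foreground was 7717. In 1 of them foreground lay below background: the first copy of Mt2 probe 2 for Control 2 on the array with Control 3, where the local background was 4111.

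**Figure D1:**
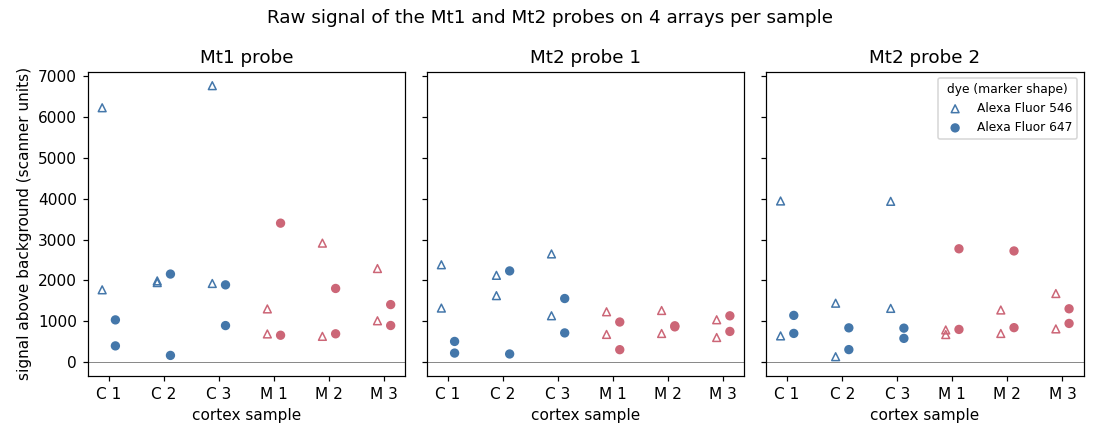
Signal above local background in scanner units (vertical axis, linear) of the Mt1 probe, Mt2 probe 1 and Mt2 probe 2 in the 6 cortex samples, blue for control and red for menopausal; each point is the mean of 2 spots in 1 channel of 1 array, open triangles for Alexa Fluor 546 and filled circles for Alexa Fluor 647. Points of 1 sample differ widely between arrays and dyes, so that samples are compared through ratios within arrays.

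Mt1, one of the 2 broadly expressed metallothionein genes, stood in control samples 1, 2 and 3 at 0.11, 0.29 and -0.23 on the log2 scale, relative to the mean of the 6 samples. In menopausal samples 1, 2 and 3 it stood at 0.09, -0.19 and -0.07, each value with a technical standard error of 0.14. Control 2 was highest and Control 3 lowest, so that both ends of the order were control samples and the menopausal values lay between them. The group means were 0.06 ± 0.27 (SD, n = 3) in control and -0.06 ± 0.14 (SD, n = 3) in menopausal cortex. The difference was -0.11 ± 0.16 (SE) on the log2 scale, a fold of 0.926, with a 95% interval of 0.725-fold to 1.18-fold. It did not pass the test (limma adjusted p = 0.967 over all probes; exact permutation p = 0.6, two-sided).

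Mt2 probe 1 is annotated to the second of the pair, which encodes a protein with the same metal-binding role. Probe sequences were not at hand, so whether a probe also binds RNA of the other gene could not be looked at. Mt2 probe 1 stood at -0.16, 0.29 and -0.07 in control samples 1, 2 and 3. In menopausal samples 1, 2 and 3 it stood at 0.07, -0.06 and -0.08, with a technical standard error of 0.10. Control 2 was again highest and Control 1 lowest, and the groups overlapped. The group means were 0.02 ± 0.24 (SD, n = 3) and -0.02 ± 0.08 (SD, n = 3). The difference of -0.04 ± 0.13 (SE), with an interval of 0.786-fold to 1.20-fold, did not pass (limma adjusted p = 0.995; exact permutation p = 0.9). Under global loess, a single curve per array in place of one per block, it was -0.14.

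Mt2 probe 2 stood at 0.02, 0.06 and -0.03 in the control samples and at 0.09, 0.15 and -0.29 in the menopausal samples, with a technical standard error of 0.12. Menopausal 3 was the lowest and Menopausal 2 the highest, a different order from the other Mt2 probe. The group means were 0.02 ± 0.05 (SD, n = 3) and -0.02 ± 0.24 (SD, n = 3). The difference of -0.04 ± 0.13 (SE), with an interval of 0.788-fold to 1.21-fold, did not pass (limma adjusted p = 0.996; exact permutation p = 1).

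**Figure D2:**
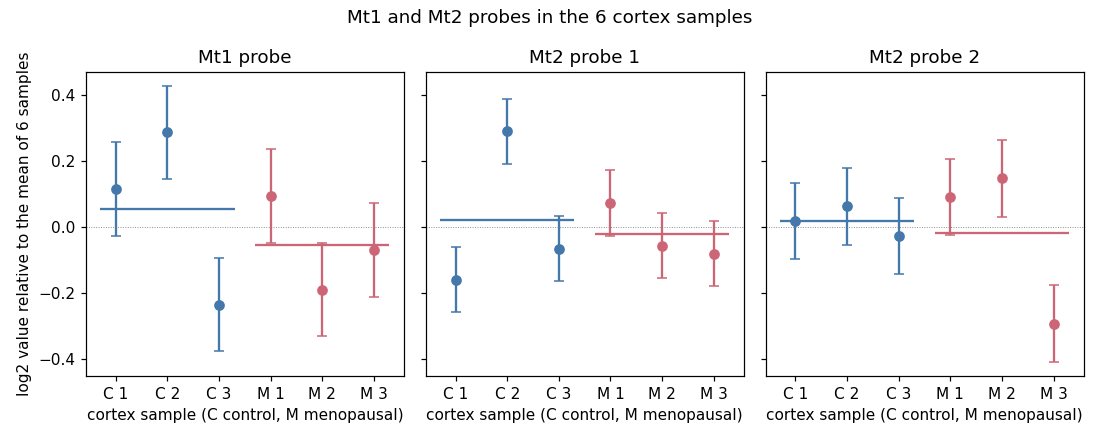
Log2 value of each probe relative to the mean of the 6 cortex samples (vertical axis), blue for control and red for menopausal, with bars of 1 technical standard error and horizontal lines at group means. The groups overlap at all 3 probes; Control 2 is highest at the Mt1 probe and Mt2 probe 1, and Menopausal 3 is lowest at Mt2 probe 2.

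With 3 samples against 3, the exact permutation test cannot give a p below 0.1. Over the whole array, 0% of the 7683 tested probes passed in limma at an adjusted p under 0.05; 375 had an unadjusted p under 0.05, of which 195 were higher and 180 lower in menopausal cortex. The smallest adjusted p was 0.924. The groups did not overlap at 12.0% of tested probes, and they overlapped at each of the 3 metallothionein probes.

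The signs of these small differences rested on few measurements. On the 6 arrays that crossed the groups, menopausal over control was below 0 on 3 for the Mt1 probe, on 1 for Mt2 probe 1 and on 2 for Mt2 probe 2. The array of Control 2 with Menopausal 3 gave the lowest ratio at all 3 probes, at -0.75, -0.65 and -0.56 on the log2 scale, dye term included. At Mt2 probe 2 the array of Menopausal 3 with Control 1 was nearly as low, at -0.559. With the dye term removed, these 2 arrays read -0.71 and -0.41 at that probe. The array of Control 2 with Menopausal 3 also lay farthest from the ratio that the 6 sample values give, by -0.50, -0.26 and -0.35. Without that array the differences were 0.06, 0.04 and 0.08. Without Control 2 they were 0.02, 0.10 and 0.02, and without Menopausal 3 they were 0.07, 0.07 and 0.23. The cause of the values on that array was not tested.

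**Figure D3:**
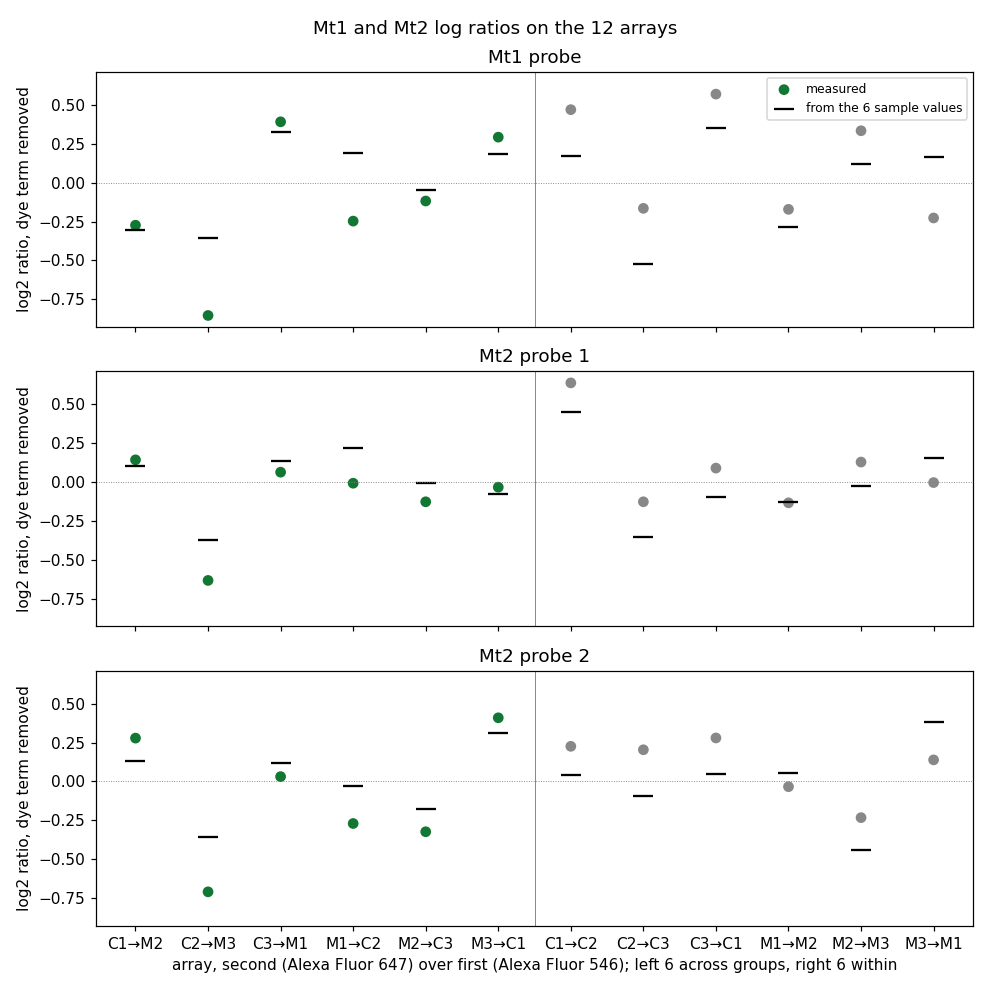
Log2 ratio of the second sample (Alexa Fluor 647) over the first (Alexa Fluor 546) after the dye term was removed (vertical axis) on 12 arrays, green where the array crosses the groups and grey within a group; dashes are the ratios given by the 6 sample values. The array of Control 2 (C2) with Menopausal 3 (M3) lies lowest in all 3 panels.

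Differences among samples of the same group did not pass the test at any of the 3 probes. The control values spanned 0.52 at the Mt1 probe, 0.45 at Mt2 probe 1 and 0.09 at Mt2 probe 2. The limma adjusted p among the control samples was 0.451, 0.29 and 0.963. At Mt2 probe 2 neither channel of the array of Control 2 with Control 3 exceeded background by 2 of its SDs, with copies averaged. That array was kept in the fit, and without it the limma adjusted p among control samples was 0.667 at this probe. The menopausal values spanned 0.28, 0.15 and 0.44, with limma adjusted p of 0.711, 0.79 and 0.395. These tests use the spread between repeat arrays of the same RNA, which is technical. They passed at 1.08% of tested probes among control samples (83) and at 0.377% among menopausal samples (29). The first count was 0 without Control 3, and the second was 0 without Control 1, Menopausal 1, Menopausal 3 or the array of Menopausal 3 with Menopausal 1, and 1 without Control 3.

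In the order of the 6 samples, no neighbours differed by more than 2 technical standard errors of their difference at any of the 3 probes. The gap between the highest and the lowest sample was 0.52 at the Mt1 probe (Control 2 over Control 3), 0.45 at Mt2 probe 1 (Control 2 over Control 1) and 0.44 at Mt2 probe 2 (Menopausal 2 over Menopausal 3). Each of these gaps exceeded 2 technical standard errors of its difference (standard errors 0.21, 0.15 and 0.18), but the pairs were picked as extremes. Each pair lay within a group whose samples did not pass the F test after adjustment over all probes. The unadjusted p of the limma F test in that group was 0.0847, 0.0276 and 0.0562. The SD of the 6 values was 0.20, 0.16 and 0.16, beside technical standard errors of a sample value of 0.14, 0.10 and 0.12. These SDs exceeded that of 84.9%, 73.9% and 72.4% of tested probes, where the median SD was 0.11. The tested probes were not matched for brightness. Much of the spread lay within the control group for the Mt1 probe and Mt2 probe 1, and within the menopausal group for Mt2 probe 2.

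The 2 copies of each probe read alike. The gap between copies on an array had a median of 0.06 for the Mt1 probe, 0.04 for Mt2 probe 1 and 0.07 for Mt2 probe 2, and the largest was 0.22. The residuals of the array fit were larger, with SDs of 0.40, 0.23 and 0.30. Over the 6 samples, Pearson's r was 0.644 between the Mt1 probe and Mt2 probe 1, 0.312 between the 2 Mt2 probes and 0.178 between the Mt1 probe and Mt2 probe 2. Over the 12 arrays it was 0.743, 0.618 and 0.602. These are descriptions, since the points share samples, arrays and dyes. The 2 Mt2 probes did not follow each other more closely than Mt2 probe 1 followed the Mt1 probe. Binding of a probe to RNA of both genes could not be looked at.

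The mean of the 3 probes, 2 of them for Mt2, was 0.21 in Control 2, 0.09 in Menopausal 1 and -0.01 in Control 1. It was -0.03 in Menopausal 2, -0.11 in Control 3 and -0.15 in Menopausal 3. The SD between the 3 probes was 0.13, 0.01, 0.14, 0.17, 0.11 and 0.13 in the same order. The SD of the mean over the 6 samples was 0.13, so the mean is not a profile that the probes share closely. Of 4437 genes with a tested probe, 3674 were compared with this mean. Mt1, Mt2 and genes whose SD over the 6 samples was small relative to that of the mean were left out. The 5 genes with the highest Pearson's r, which ignores the size of the values, were Mmadhc (r = 0.995), Rpl10 (r = 0.979), Hddc2 (r = 0.973), Polr2c (r = 0.973) and Crtc1 (r = 0.971). Mmadhc encodes a cobalamin trafficking protein and Rpl10 a protein of the large ribosomal subunit. Their group differences ran from -0.11 to -0.04, and with 6 points and 3674 genes such values describe these samples only.

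Genes that handle zinc were spread around 0. Of 25 listed genes, zinc transporters with the zinc sensor Mtf1, 12 were tested; 8 were higher and 4 lower in menopausal cortex, with a median of 0.04, and 0 passed. Slc30a3, which moves zinc into vesicles, stood at 0.08, 0.06 and 0.07 in control and at -0.12, -0.01 and -0.07 in menopausal samples. Its difference was -0.14 ± 0.05 (SE, limma adjusted p = 0.924), and 0.02 under global loess. Slc30a7, a zinc transporter of the Golgi, differed by 0.12 ± 0.06 (SE, limma adjusted p = 0.924), and by 0.30 under global loess. Mtf1 itself differed by -0.01 ± 0.07 (SE, limma adjusted p = 0.997), and by 0.19, with the opposite sign, under global loess.

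Copper and iron genes did not pass either. Of 17 listed, 12 were tested, 6 higher and 6 lower, with a median of 0.02. Tfrc, the transferrin receptor, differed by -0.24 ± 0.11 (SE, limma adjusted p = 0.924), and Sod1, the copper and zinc superoxide dismutase, by 0.23 ± 0.14 (SE, limma adjusted p = 0.924). Under global loess they differed by -0.39 and 0.14. Across all 4437 genes with a tested probe, 2284 were higher and 2153 lower, with a median of 0.005.

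Of 24 genes of oxidative and heavy metal stress, 12 were tested, with 5 higher, 7 lower, 0 passing and a median of -0.02. Mafg, a small Maf partner of NRF2, differed by -0.20 ± 0.08 (SE, limma adjusted p = 0.924), and Gsta4, a glutathione transferase for lipid aldehydes, by 0.29 ± 0.13 (SE, limma adjusted p = 0.924), which was 0.17 under global loess. Of 15 acute phase and STAT3 genes 3 were tested, 2 higher and 1 lower, and 0 passed. Socs3, which restrains STAT3 signalling, differed by -0.08 ± 0.05 (SE) and the receptor subunit Il6st by 0.12 ± 0.10 (SE), with limma adjusted p of 0.924 and 0.935.

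Of 16 glucocorticoid response genes 5 were tested, 4 higher and 1 lower, with a median of 0.08, and 0 passed. Sgk1, a kinase induced by corticosteroids, stood at 0.43, -0.90 and -0.32 in control and at -0.31, -0.14 and 1.25 in menopausal samples. Control 2, highest in the mean of the metallothionein probes, was lowest for Sgk1, and Menopausal 3, lowest in that mean, was highest. The metallothionein probes did not share these ends. Control 2 was highest at the Mt1 probe and Mt2 probe 1 only, and Menopausal 3 was lowest at Mt2 probe 2 only. A relation between Sgk1 and the metallothionein values was not tested. Sgk1 differed among control samples (limma adjusted p = 0.0033) and among menopausal samples (limma adjusted p = 0.0033), and its group difference was 0.53 ± 0.44 (SE, limma adjusted p = 0.94). Klf9, another glucocorticoid target, differed between groups by -0.13 ± 0.13 (SE, limma adjusted p = 0.948). Its order was another one, with 0.07, -0.14 and 0.26 in control and -0.19, -0.15 and 0.15 in menopausal samples.

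**Figure D4:**
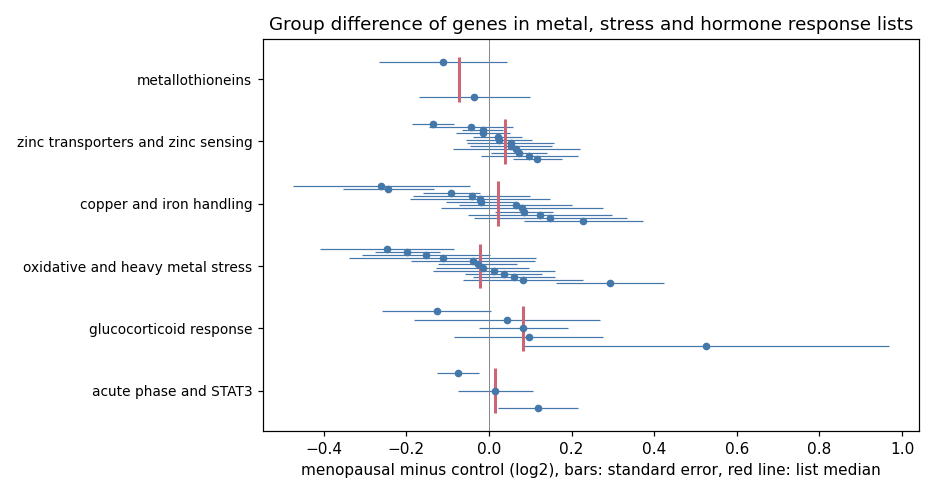
Menopausal minus control on the log2 scale (horizontal axis) for each tested gene of 6 lists, with bars of 1 standard error and a red line at the list median. Every list has genes near 0, and the medians lie between -0.07 and 0.08.

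Cell type markers were few on this array. Of 16 proximal tubule markers 4 were tested and 0 passed, and their median values ran from -0.16 in Menopausal 1 to 0.16 in Menopausal 2. In Control 2 the markers Gatm, Gldc, Lrp2 and Miox stood at -0.16, -0.43, -0.12 and 0.0079. In Menopausal 3 they stood at -0.59, 0.75, 0.01 and -0.07, with no shared direction. Of 8 red blood cell markers 2 were tested. Hbb-b1, adult beta globin, stood at -0.17, -0.77 and 0.73 in control and at 0.72, 0.06 and -0.56 in menopausal samples. It differed among both groups' samples (limma adjusted p = 0.00131 and 0.012). The other marker, Alas2, did not pass among control or menopausal samples (limma adjusted p = 0.194 and 0.41). Of 10 immune markers 3 were tested and 0 passed: Lyz2, C1qb and C1qa differed by -0.15, -0.01 and -0.0074, and under global loess by -0.10, 0.01 and 0.18, so that the sign of C1qb and C1qa turned. In whole cortex, fewer cells of a type and less RNA per cell cannot be told apart, and the part of cell makeup in the metallothionein values was not tested.

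**Figure D5:**
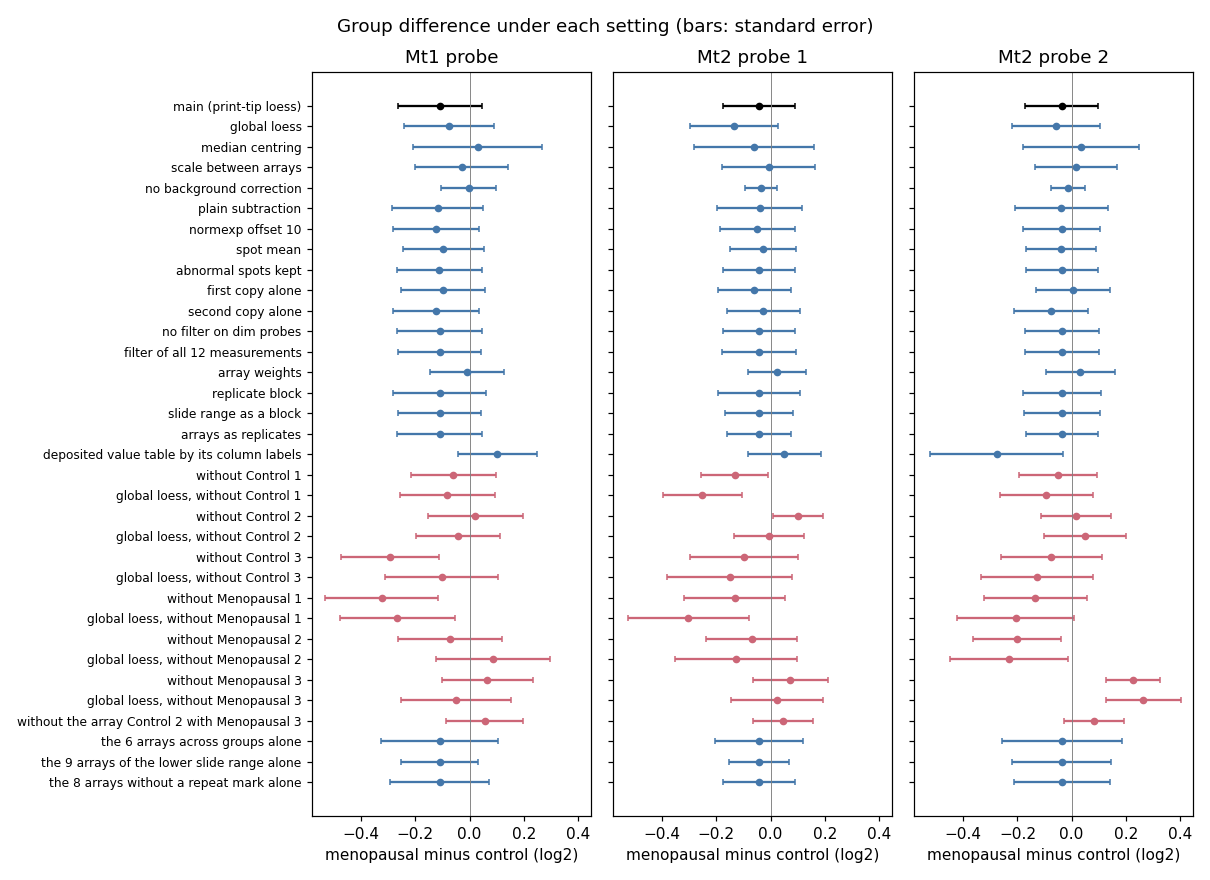
Menopausal minus control on the log2 scale (horizontal axis) for the 3 probes under each setting, with bars of 1 standard error; black is the reported value, red a setting with a sample or array left out and blue any other setting. Values lie on both sides of 0 for each probe.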

How the data were processed

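Kidney cortex RNA of 6 mouse samples was measured on 12 arrays with 2 colours. The authors deposited scanner tables with spot intensity and local background intensity per channel, not normalized, and a table of processed values whose log scale is not stated, taken here as log2 ratios. Neither labels nor file headers name the image software or a genome build. The group comparison is limited by its 3 samples per group, and the precision of each sample value by the number of arrays. Per channel, 16.5% to 76.8% of spots lay above background.

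Background was corrected by normexp (offset 50), ratios were normalized by print-tip loess in 48 blocks, 24 to 418 spots per array marked abnormal were left out, and copies were averaged with limma 3.58.1 in R 4.3.3. A fit with a dye term gave 1 value per sample, and limma (trend, Benjamini-Hochberg over 7683 probes, 0.05) compared groups; it compared samples within a group by an F statistic with 6 residual degrees of freedom. Probes were kept with foreground over background by more than 2 background SDs in at least 6 of 12 measurements of a group. On simulated data the planted changes were recovered, but unchanged probes were called somewhat more often than the nominal rate, so p-values may be slightly small.

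The members, lists and tests were chosen with earlier results of these data known, and print-tip loess was made the main setting because of one of them: the block of the slide accounted for a share of 0.316 of the variance in group differences under global loess and of 0.00505 under print-tip loess. Named genes were all metallothionein probes, up to 2 genes per list with the smallest unadjusted p, and the 5 genes most like the mean profile. Mtf1, Hbb-b1, Alas2 and the proximal tubule and immune markers were named after their values were seen.

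Gene names rest on a mirrored spot order inferred from the data, which put 150 probes for ribosomal proteins at a mean percentile of 87.5 in brightness (49.5 without mirroring). Of 9445 annotated probes, 9191 had 1 symbol and 254 several; 9085 symbols were updated through RefSeq gene identifiers. In the deposited value table, 0 of 12 columns lay closest to the array of their own label, and each lay closest to a different array with a negative sign. This held in all 6 ways of computing the correlation that were tried; its size was 0.443 to 0.796 with normexp and loess over kept probes and 0.0609 to 0.935 over all ways. Group directions therefore rest on how the scanner tables are labelled.

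Same-numbered control and menopausal samples had correlations of -0.355, -0.515 and -0.114 in their deviations from the group means, so numbers were not taken as pairs. The alternatives were other normalizations, background corrections, filters and weights, single copies, arrays as replicates, blocks, left-out samples and arrays, and the deposited value table.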

Additional observations from a re-analysis of the deposited data

How the results depend on the processing

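Over 44 alternative settings, 0 of 132 differences of the 3 probes passed in limma, and 21 changed sign; the lowest adjusted p was 0.342. With the replicate number as a block the differences were -0.11, -0.04 and -0.04 (limma adjusted p = 0.999 each) and the block changed no call. The design fixes the differences there, because every number occurs in both groups. They could not move either with the slide range as a block, arrays as replicates, another filter, or an array within a group left out. These settings are among the 44, so the 21 changes of sign came from the remaining ones only. With 1 sample or array left out, the Mt1 probe ran from -0.325 to 0.0651, Mt2 probe 1 from -0.132 to 0.101 and Mt2 probe 2 from -0.202 to 0.227. With 1 sample left out under global loess, the lowest and highest were -0.266 and 0.0879 for the Mt1 probe, -0.304 and 0.0248 for Mt2 probe 1 and -0.231 and 0.265 for Mt2 probe 2, which was 0.0491 without Control 2. The sign also turned under median centring (Mt1 probe 0.0295, Mt2 probe 2 0.0351) and scaling between arrays (Mt2 probe 2 0.0154). It turned with the first copy alone (Mt2 probe 2 0.00409) and with array weights (Mt2 probe 1 0.0243, Mt2 probe 2 0.032). The authors' deposited values, taken by column label with their sign turned, gave 0.103 for the Mt1 probe and 0.0509 for Mt2 probe 1. Mt2 probe 2 was -0.277 there, its lowest value over the settings run. Those columns did not match the arrays of their labels, so these values cannot be read as a group difference, although they are counted among the 132. Under global loess with all samples Mt2 probe 1 was -0.136. Combining global loess with left-out samples, and using the arrays across groups, of the lower slide range or without a repeat mark alone, were chosen after seeing the data; the last 3 left all differences as reported, since the design fixes them by the 6 arrays across groups.

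The count of probes called between groups was 0 in every other setting run but 49 under global loess without Menopausal 3. Calls among control samples were 127 with scaling, 35 without background correction, 145 with plain subtraction, 46 without a filter, 169 with the strict filter, 160 with array weights and 0 in the value table. They ran from 0 (without Control 3) to 107 with a sample or array left out, and under global loess were 4, 20, 0, 44, 170 and 32 without Control 1, 2, 3 and Menopausal 1, 2, 3. Calls among menopausal samples were 15 under global loess, 88 under median centring, 0 with scaling or without background correction, 11 with plain subtraction, 13 without a filter, 129 with array weights and 0 in the value table. They ran from 0 to 21 with a sample or array left out, and under global loess were 0, 10, 0, 1, 16 and 0 in the same order. The cause was not tested, except that leaving out a sample leaves fewer to compare. Among samples of a group, 0 of the 3 probes was called in any of 40 settings. Replicates number 3 per group, and 3 of 15 sample pairs never met on an array, which makes the standard error of such a pair 1.1 times that of the others.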
